A study of Mus musculus with 12 samples.

Results

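RNA-seq counts from liver of knockout (KO) mice were set against those from liver of wild-type (WT) mice, gene by gene. The columns of the count table labelled as liver gave 6 of the 12 samples of the study, 3 KO and 3 WT, and the other 6 samples were white fat of the same genotypes. The KO mice were labelled as carrying a global deletion of the microRNA cluster miR-322-503-351, so the deletion is not limited to liver. KO and WT name these labels throughout, and counts at Mir351, a member of the cluster, go against them. Both groups were male, 52 weeks old, and fasted for 12 hours before the tissue was frozen. The labels name no strain, no littermate controls and no animal numbers. They do not say that the 3 libraries of a group came from separate animals. The p-values therefore rest on the spread of these libraries, which may be in part technical.

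MicroRNAs are short RNAs that guide repression of messages carrying a match to bases 2 to 8 of the microRNA, the seed, usually in the 3′ UTR. The fasted liver is known for taking up fatty acids released from fat, burning them in mitochondria and peroxisomes, and making ketone bodies and glucose, and the nuclear receptor PPARα is known for switching on many of the genes involved. The liver also makes most plasma proteins, clears drugs and hormones, and in mice differs between the sexes through the pattern of growth hormone release.

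The mature sequences of the microRNAs labelled as deleted (RefSeq, GRCm38.p6, X chromosome, minus strand) are shown with the seed in capitals. Matches to these seeds in liver messages are described further on.
mmu-miR-322-5p: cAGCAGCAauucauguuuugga
mmu-miR-503-5p: uAGCAGCGggaacaguacugcag
mmu-miR-351-5p: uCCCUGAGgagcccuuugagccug
The first 2 seeds differ at their last base only, and miR-322 has the seed of the miR-15/16 family.

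The primary microRNA genes were compared with the labels, and they did not all follow them. Mir503 (GRCm38, X chromosome, 53053984 to 53054054) had 0 counts in each KO library, against 4, 4 and 8 counts in WT libraries. Mir322 had 0 counts in each KO library, against 2, 1 and 0 counts in WT libraries, too few to tell the groups apart by itself. Counts at Mir351 were 13, 17 and 11 in KO libraries, against 5, 2 and 2 in WT libraries (2.18 ± 0.60 in log2 fold change, adjusted p = 0.213) and were the highest of the 3 microRNA genes in KO libraries. Of the 3 genes labelled as deleted, Mir503 followed the label, Mir322 had too few counts, and Mir351 went against it, with every KO library above every WT library, though the difference did not pass. The next transcript in the row, the long noncoding C430049B03Rik (chromosome X, 53055046 to 53057190), had 68, 69 and 67 counts in KO libraries, against 3, 1 and 2 counts in WT libraries. It is the most strongly changed gene of the liver (5.04 ± 0.42, adjusted p = 0.000356). On the other side of the cluster, beside Mir351, the long noncoding Gm28730 (chromosome X, 53051194 to 53053159) had 0 counts in each KO library, against 2, 7 and 3 counts in WT libraries. Mir503, Mir322 and Gm28730 had too few counts for the fit and were not tested. The mature forms were not analysed here.

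The liver libraries were even in depth, with 14673141 to 15142776 counts in KO and 14769598 to 15524524 counts in WT libraries, and 19295 to 19739 genes with a count. Within a group, no 2 libraries agreed within sampling noise (chi-square over its degrees of freedom between 9.01 and 32.6), and each was kept as 1 sample. The tissue read as liver in every library: hepatocyte markers summed to 112105 to 113019 CPM in KO and 121811 to 127776 CPM in WT libraries, while 6 of 9 listed genes of the exocrine pancreas were at 0 in all 6 libraries. On the first principal component, which held 27.8% of the variance, KO libraries 1 to 3 stood at 6.99, 13.2 and 34.2, against -18.0, -17.3 and -19.2 for WT libraries 1 to 3. The genotypes did not overlap there, and KO library 3 stood farthest out. The second component held nearly as much, 24.4%, and on it the genotypes overlapped. There KO libraries 1 to 3 stood at 1.27, -23.9 and 14.0, against -26.2, 13.6 and 21.3 for WT libraries 1 to 3. KO library 2 and WT library 1 thus stood together, away from the rest. The share of counts from mitochondrially encoded genes was between 6.52% and 7.35% in KO libraries, against 5.55% and 5.83% in WT libraries. KO libraries were also lower at GC-rich genes and higher at GC-poor ones, as described with the GC share below.

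Of 13529 genes tested with edgeR's quasi-likelihood test, 21 (0.155%) passed a Benjamini-Hochberg adjusted p under 0.05. These were 14 higher in KO (0.103%) and 7 lower in KO (0.0517%), and 19 of the 21 encode proteins. In every one of the 21 the KO and WT libraries did not overlap, where this held for 9.5% (higher) and 9.51% (lower) of all tested genes. Choosing genes by p in the same libraries favours such separation, so it is not separate support. Fold changes below are log2, KO minus WT, ± standard error (SE), and levels are CPM, counts scaled to the TMM-corrected library total. Over all tested genes the median fold change was -0.00052 and 49.9% lay above 0. The number called was 8 without KO library 1, 34 without KO library 3, and 12, 8 and 5 without WT libraries 1, 2 and 3. DESeq2 called 138 genes in the same libraries, 78 higher (0.653% of the 11954 it adjusted) and 60 lower (0.502%), including all 21.

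**Figure D1:**
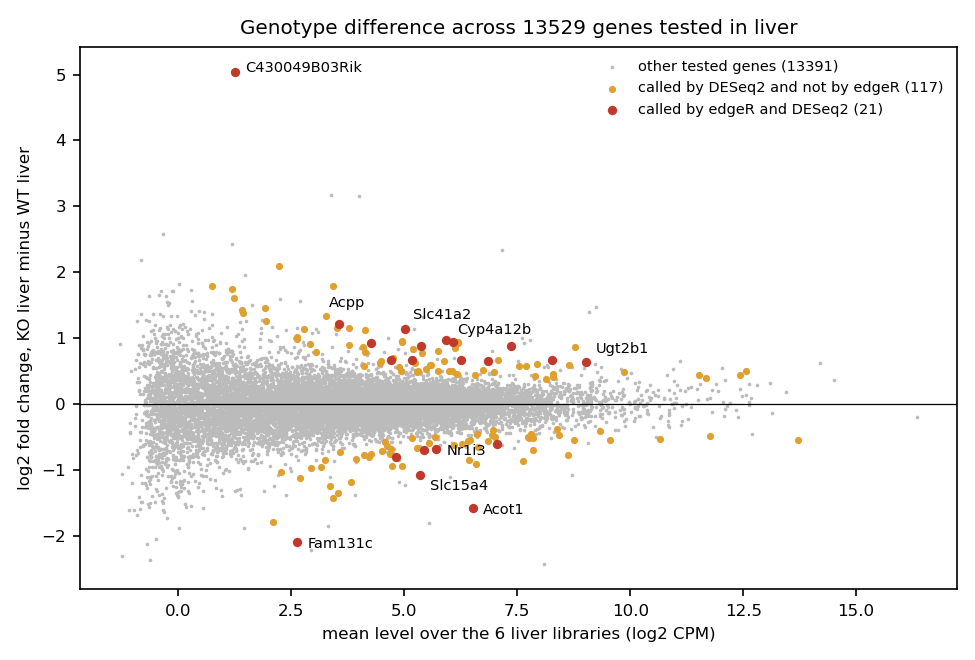
Log2 fold change (KO liver minus WT liver, vertical axis) against mean level over the 6 liver libraries (log2 CPM, horizontal axis) for the 13529 tested genes, 1 point each. Red points are the 21 genes called by edgeR and DESeq2, orange points the further genes called by DESeq2, and grey points the rest; C430049B03Rik stands highest, at 5.04.

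Among enzymes of fatty acid handling, Acot1 fell in KO liver and a male-type fatty acid hydroxylase, Cyp4a12b, rose. Acot1 (chromosome 12, 84009490 to 84018371), a cytosolic thioesterase that frees fatty acids from their acyl-CoA form, had 40.9, 39.04 and 58.1 CPM in KO libraries, against 131, 133 and 147 CPM in WT libraries. KO library 3 was the highest of the KO libraries and still far below each WT library (-1.58 ± 0.14, adjusted p = 0.00116). Cyp4a12b (chromosome 4, 115411624 to 115439034), which hydroxylates fatty acids at the end of the chain, had 85.1, 73.5 and 83.5 CPM in KO libraries, against 36.5, 40.1 and 46.6 CPM in WT libraries. The KO libraries lay within a narrow band above all WT libraries (0.98 ± 0.11, adjusted p = 0.00499). With C430049B03Rik, these were the only genes of the 21 called in 6 of 6 fits that left out a library. Both have near-identical paralogs, so reads may have been split between copies by the authors' counting.

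Genes for clearing hormones and drugs went both ways. Ugt2b1 (chromosome 5, 86916638 to 86926530), a glucuronosyltransferase that conjugates steroids and drugs, had 593, 641 and 658 CPM in KO libraries, against 413, 393 and 402 CPM in WT libraries. It rose in KO liver (0.65 ± 0.09, adjusted p = 0.0275), as did its neighbour Ugt2b35 (chromosome 5, 87000860 to 87013275) with 151, 146 and 124 CPM in KO libraries, against 82.3, 95.5 and 89.8 CPM in WT libraries (0.66 ± 0.11, adjusted p = 0.0325). Nr1i3 (chromosome 1, 171213970 to 171220701), which encodes the drug-sensing nuclear receptor CAR, had 35.99, 42.3 and 42.4 CPM in KO libraries, against 65.4, 62.7 and 64.3 CPM in WT libraries. It fell in KO liver (-0.67 ± 0.10, adjusted p = 0.0280), and the WT libraries lay close together above all KO libraries. The P450 genes of the CAR and PXR list did not pass with edgeR. Cyp2b10, which CAR is known to drive, had 4.75, 2.34 and 8.78 CPM in KO libraries, against 5.95, 5.98 and 10.4 CPM in WT libraries (-0.49 ± 0.47, adjusted p = 0.705), and its groups overlapped. Over the list of CAR and PXR with their P450 targets, 1 of 25 tested genes passed, Nr1i3 itself, against a background of 0.155%. Of the 25, 11 lay above and 14 below 0. DESeq2 called 2 of them, Nr1i3 lower and the P450 gene Cyp3a13 higher (0.58 ± 0.11, adjusted p = 0.0719 with edgeR and 0.00223 with DESeq2). The DESeq2 backgrounds were 0.653% (higher) and 0.502% (lower). The list's median of -0.04 turned positive without WT library 2 or WT library 3.

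Secreted and immune-related genes were among those that rose. Spp1 (chromosome 5, 104435118 to 104441050), which encodes the matrix and cytokine-like protein osteopontin, had 44.5, 59.1 and 56.04 CPM in KO libraries, against 31.7, 25.3 and 29.8 CPM in WT libraries. KO libraries 2 and 3 were close to each other, and KO library 1 was nearest to the WT range without touching it (0.88 ± 0.13, adjusted p = 0.0275). C4a (chromosome 17, 34809092 to 34823464), a complement gene with the near-identical neighbour C4b, had 175, 252 and 209 CPM in KO libraries, against 129, 107 and 108 CPM in WT libraries (0.89 ± 0.13, adjusted p = 0.0280). C4b itself had 1851, 2199.8 and 1908 CPM in KO libraries, against 1651, 1775 and 1728 CPM in WT libraries and did not pass (0.21 ± 0.10, adjusted p = 0.416). Il13ra1 (chromosome X, 36112110 to 36171259), a chain of the receptor for interleukins 4 and 13, had 40.9, 47.2 and 44.8 CPM in KO libraries, against 28.8, 28.04 and 26.4 CPM in WT libraries (0.67 ± 0.11, adjusted p = 0.0280). Both it and C4a rose with no overlap between groups. Mup14 (chromosome 4, 61300023 to 61304000), a gene of the urinary pheromone carriers, rose as well, with 106, 85.2 and 75.05 CPM in KO libraries, against 52.6, 43.1 and 42.04 CPM in WT libraries (0.95 ± 0.14, adjusted p = 0.0275), and it too has near-identical paralogs. Lgals4 (chromosome 7, 28833854 to 28841708), a galectin, fell, with 34.3, 29.9 and 35.4 CPM in KO libraries, against 59.5, 49.3 and 51.5 CPM in WT libraries (-0.69 ± 0.11, adjusted p = 0.0338).

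Transporters and surface proteins made a further group. Slc15a4 (chromosome 5, 127595664 to 127632897), which carries histidine and small peptides out of lysosomes, had 22.6, 27.1 and 28.5 CPM in KO libraries, against 63.5, 41.9 and 59.7 CPM in WT libraries. It fell in KO liver (-1.08 ± 0.16, adjusted p = 0.0280), and WT library 2 was the closest to the KO range. Slc41a2 (chromosome 10, 83230848 to 83337882), a magnesium transporter, had 45.6, 49.3 and 38.6 CPM in KO libraries, against 25.9, 19.03 and 15.9 CPM in WT libraries. It rose (1.14 ± 0.17, adjusted p = 0.0328), and here WT library 1 was the closest. Antxr2 (chromosome 5, 97882783 to 98031043), a collagen-binding receptor also used by anthrax toxin, had 31.4, 33.05 and 31.9 CPM in KO libraries, against 18.6, 20.3 and 21.6 CPM in WT libraries (0.67 ± 0.11, adjusted p = 0.0354). Rarres1 (chromosome 3, 67478972 to 67515523), a membrane protein induced by retinoids, had 89.02, 83.2 and 111 CPM in KO libraries, against 61.1, 54.9 and 61.2 CPM in WT libraries (0.68 ± 0.12, adjusted p = 0.0451). Antxr2 and Rarres1 rose by similar amounts, and neither gene's groups overlapped.

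Of the remaining enzymes, Hal and Acpp rose while Alpl and Agmat fell. Hal (chromosome 10, 93488768 to 93519304), histidine ammonia-lyase, opens the breakdown of histidine and had 333, 399.5 and 404 CPM in KO libraries, against 252, 202 and 257 CPM in WT libraries (0.68 ± 0.12, adjusted p = 0.0471). Acpp (chromosome 9, 104288251 to 104337748), an acid phosphatase, had 16.8, 14.8 and 18.04 CPM in KO libraries, against 6.95, 9.002 and 5.34 CPM in WT libraries (1.22 ± 0.19, adjusted p = 0.0282). For both genes the lowest KO library stood above the highest WT library. Alpl (chromosome 4, 137741733 to 137796384), the tissue-nonspecific alkaline phosphatase, had 21.9, 19.00 and 20.7 CPM in KO libraries, against 39.8, 34.5 and 33.3 CPM in WT libraries (-0.81 ± 0.12, adjusted p = 0.0275). Agmat (chromosome 4, 141746672 to 141759263), a mitochondrial enzyme named for splitting agmatine, had 118, 99.8 and 99.03 CPM in KO libraries, against 163, 156 and 160.3 CPM in WT libraries (-0.60 ± 0.10, adjusted p = 0.0354). The WT libraries of Agmat lay within a few CPM of each other, well above all KO libraries. Fam131c (chromosome 4, 141368220 to 141384175) had 2.71, 1.17 and 3.18 CPM in KO libraries, against 9.13, 8.42 and 12.4 CPM in WT libraries and had the lowest fold change of the 21 called genes (-2.08 ± 0.31, adjusted p = 0.0280). Gm14403 (chromosome 2, 177498215 to 177509763), a predicted gene, had 25.7, 22.3 and 27.8 CPM in KO libraries, against 10.3, 15.4 and 14.2 CPM in WT libraries and rose (0.92 ± 0.16, adjusted p = 0.0451). Hal, Agmat and Antxr2 were called in 0 of 6 fits that left out a library, and the other genes of this and the 3 paragraphs before in 1 to 3 of 6.

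**Figure D2:**
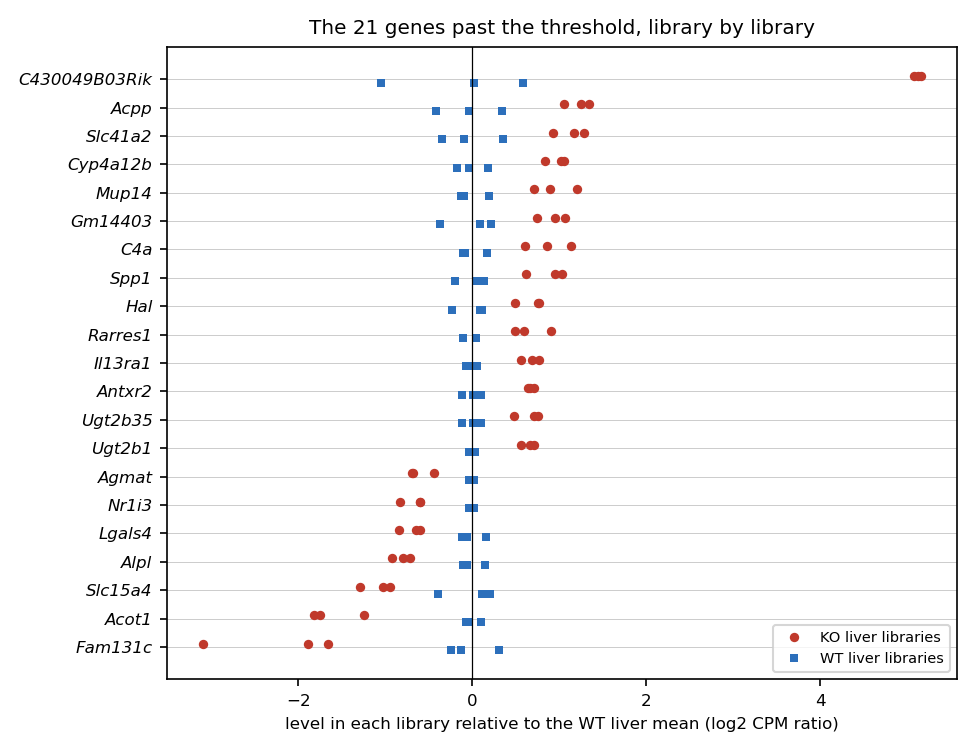
Level of each of the 21 called genes in each library relative to its WT liver mean (log2 CPM ratio, horizontal axis). Red circles are the 3 KO liver libraries and blue squares the 3 WT liver libraries; within every row the colours do not overlap.

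The genes that came next by p, among protein-coding genes at a level of at least 1 in mean log2 CPM and with no overlap between groups, missed the edgeR threshold, with adjusted p between 0.0562 and 0.0922. Crat, the carnitine acetyltransferase that buffers mitochondrial acetyl-CoA, had 64.3, 51.6 and 84.3 CPM in KO libraries, against 126, 125 and 126 CPM in WT libraries (-0.91 ± 0.15, adjusted p = 0.0562). Acsl1, which charges long-chain fatty acids with CoA, had 1326, 1286 and 1329.9 CPM in KO libraries, against 2116, 1814 and 1767 CPM in WT libraries (-0.53 ± 0.10, adjusted p = 0.0614). Both were called lower by DESeq2, with adjusted p of 1.12e-05 and 0.000686. The droplet coat gene Plin2 (-0.55 ± 0.11), the lipase-like Abhd2 (-0.65 ± 0.12), the proprotein convertase gene Pcsk4 (-0.59 ± 0.11) and the nuclear envelope gene Sun2 (-0.49 ± 0.09) were also in this class on the lower side, with Tmem82, Iffo2 and Eml3.

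On the higher side of the same class stood Nnmt, which methylates nicotinamide, with 138, 161 and 194 CPM in KO libraries, against 109, 96.97 and 102 CPM in WT libraries (0.68 ± 0.12, adjusted p = 0.0562). Apcs, the mouse acute phase pentraxin serum amyloid P, had 83.9, 88.3 and 96.1 CPM in KO libraries, against 48.2, 61.02 and 38.7 CPM in WT libraries (0.86 ± 0.15, adjusted p = 0.0562). Smpd3, a neutral sphingomyelinase, had 7.73, 4.48 and 10.7 CPM in KO libraries, against 1.06, 2.57 and 1.69 CPM in WT libraries (2.10 ± 0.38, adjusted p = 0.0719). Its level was low in all libraries, and its fold was the widest of the class. The macrophage pore-forming gene Mpeg1 (0.62 ± 0.12), the adaptor gene Tifa (1.13 ± 0.20), Cyp3a13, the steroid dehydrogenase Hsd3b2 (0.51 ± 0.10), the acute phase gene Orm1 (0.86 ± 0.16), Cd276 (1.61 ± 0.33) and Gna14 (1.14 ± 0.23) completed it. DESeq2 called all 20 genes of this class.

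Genes of fat burning lay lower in KO liver nearly throughout. Of the 29 genes listed for fatty acid oxidation and ketogenesis, all were tested, 2 lay above and 27 below 0, and the median was -0.24. In 17 of the 29 every KO library was below every WT library, where the background is 9.51%. With edgeR 0 of 29 passed, and with DESeq2 5 were called lower, against a background of 0.502%. Among the 5 were Crat, Acsl1, the peroxisomal thiolase Acaa1a (-0.38 ± 0.09) and the carnitine importer Slc22a5 (-0.61 ± 0.18). Levels summed over the list were 14586 to 17608 CPM in KO and 19267 to 20794 CPM in WT libraries. In bulk tissue, fewer cells of a type and less RNA per cell cannot be told apart. The outer-membrane gate of the pathway, Cpt1a, had 644, 639.9 and 827 CPM in KO libraries, against 831, 786 and 707 CPM in WT libraries (-0.14 ± 0.12, adjusted p = 0.656), with overlapping groups. Leaving out each library in turn kept the median between -0.27 and -0.20.

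The listed PPARα target genes had the widest shift of the fuel lists. Of 30 listed, 29 were tested, 2 lay above and 27 below 0, with a median of -0.46. The groups were apart on the lower side for 15, against a background of 9.51%. 1 passed with edgeR, Acot1, and 8 were called lower by DESeq2, against backgrounds of 0.0517% and 0.502%. Fgf21, a fasting hormone made by liver, had 3.37, 1.58 and 0.760 CPM in KO libraries, against 6.55, 6.43 and 6.89 CPM in WT libraries (-1.79 ± 0.40, adjusted p = 0.160 with edgeR and 0.000647 with DESeq2). Each KO library was below each WT library, and KO library 3 was lowest. Acot2, the mitochondrial counterpart of Acot1, had 7.33, 2.75 and 9.398 CPM in KO libraries, against 13.3, 17.2 and 18.9 CPM in WT libraries (-1.34 ± 0.40, adjusted p = 0.295 and 0.00215). The fatty acid hydroxylase Cyp4a14 had 79.5, 16.5 and 160.0 CPM in KO libraries, against 174, 513 and 692 CPM in WT libraries (-2.43 ± 1.04, adjusted p = 0.457). Its groups did not overlap, but both spread widely, and KO library 3 was close to WT library 1. Ppara itself had 133, 145 and 199.6 CPM in KO libraries, against 196, 166 and 176 CPM in WT libraries (-0.17 ± 0.14, adjusted p = 0.651), with KO library 3 above every WT library. The per-library medians of the list, relative to the WT mean on the log2(CPM + 1) scale, were -0.47, -0.72 and -0.25 in KO libraries 1 to 3, against -0.05, -0.04 and 0.08 in WT libraries 1 to 3. KO library 3 was the nearest to WT, as it was for fatty acid oxidation. The PPARα and oxidation lists share Acsl1 and several others, so they are not separate evidence. The PPARα list also shares Plin2 with the lipid droplet list, Fgf21 with the hepatokines and Cyp4a14 with the female-biased genes. Those lists, described below, are therefore not fully separate from it either.

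Genes of storing and moving fat lay lower as well, while those of making it were split. Of 27 tested genes of lipid droplets and fatty acid uptake, 4 lay above and 23 below 0 (median -0.21). With edgeR 0 passed, and with DESeq2 5 were called lower, against a background of 0.502%. Without WT library 1 the median was -0.37. Plin5, which ties droplets to mitochondria, had 51.8, 52.3 and 80.99 CPM in KO libraries, against 128, 87.8 and 115 CPM in WT libraries (-0.84 ± 0.21, adjusted p = 0.00149 with DESeq2), and G0s2, an inhibitor of the lipase Pnpla2, had 182, 96.5 and 140.3 CPM in KO libraries, against 293, 251 and 215 CPM in WT libraries (-0.86 ± 0.24, adjusted p = 0.00119 with DESeq2). Of 23 apolipoprotein and lipoprotein assembly genes, 18 lay below 0 (median -0.12, and -0.07 with the trend on GC share and transcript length removed, called the composition trend here and described below). Of 24 genes of fatty acid and triglyceride synthesis, 11 lay above and 13 below 0, with a median of -0.02 that became 0.11 with that trend removed. Fasn, fatty acid synthase, had 1330.2, 1023 and 889 CPM in KO libraries, against 818, 1397 and 1120.2 CPM in WT libraries (-0.04 ± 0.22, adjusted p = 0.962). Of 25 genes of cholesterol synthesis, 16 lay above 0 (median 0.10), and this median turned negative without KO library 1 or WT library 3. In none of the 4 lists did a member pass with edgeR.

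**Figure D3:**
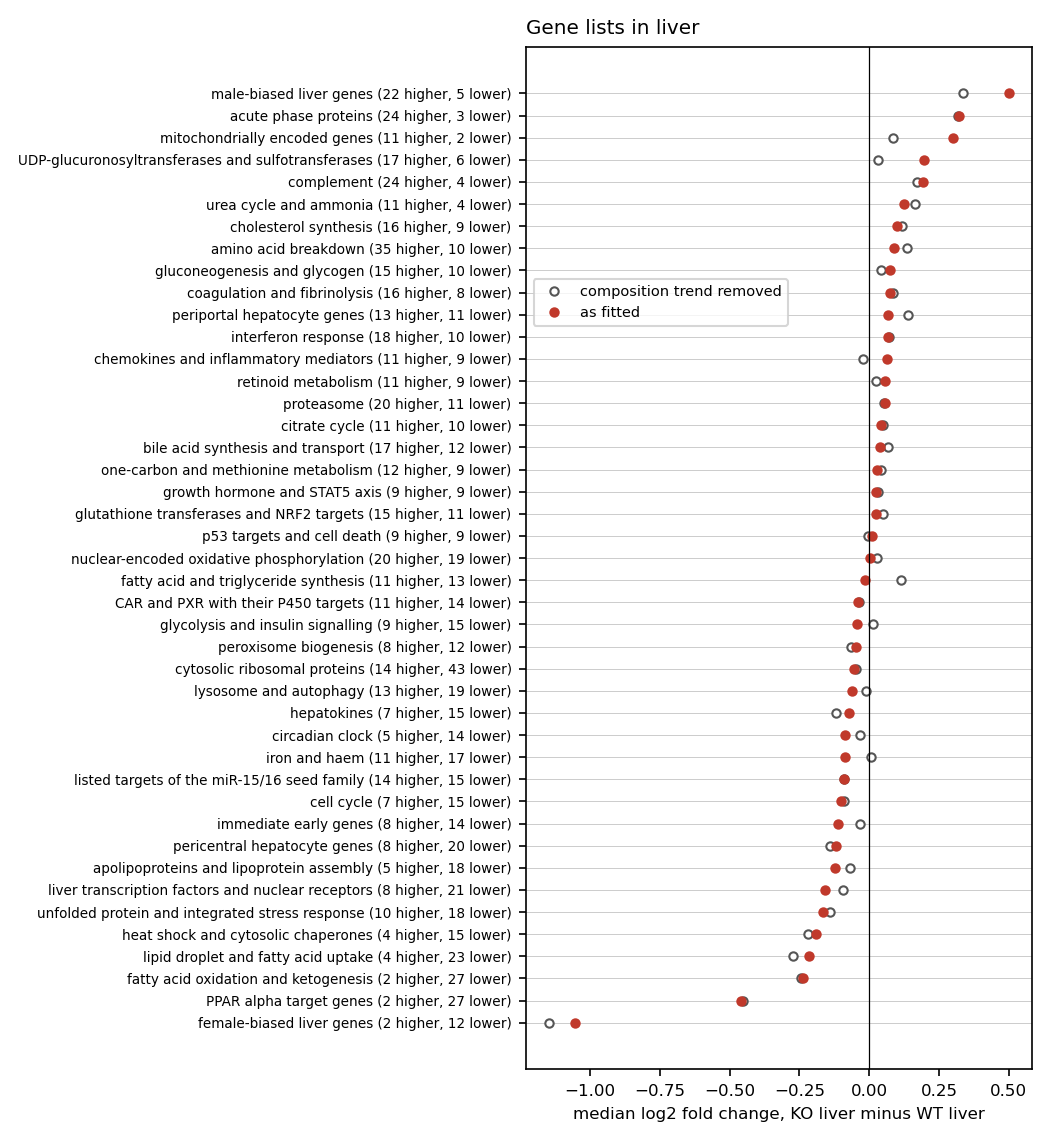
Median log2 fold change (KO liver minus WT liver, horizontal axis) of the tested members of each gene list with at least 10 tested genes, with the numbers above and below 0 in brackets. Filled red circles are the values as fitted, and open circles those with the composition trend removed from each library. PPARα targets stand at -0.46 and acute phase proteins at 0.32 as fitted, while UDP-glucuronosyltransferases and sulfotransferases stand at 0.03 and mitochondrially encoded genes at 0.09 with the trend removed, against 0.20 and 0.30 as fitted.

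Plasma proteins of the acute phase lay higher in KO liver. Of 27 tested, 24 lay above 0 with a median of 0.32, the same with the composition trend removed, and the groups were apart on the higher side for 14, against a background of 9.5%. With edgeR 0 passed, and with DESeq2 7 were called higher and 0 lower, against backgrounds of 0.653% and 0.502%. Orm1, a carrier of drugs and lipids in plasma, had 492, 657 and 556 CPM in KO libraries, against 254, 383 and 299 CPM in WT libraries (0.86 ± 0.16, adjusted p = 0.0822 with edgeR and 2.44e-05 with DESeq2). The serum amyloid gene Saa1 had 20.4, 23.8 and 21.5 CPM in KO libraries, against 9.13, 16.7 and 10.1 CPM in WT libraries (0.87 ± 0.21, adjusted p = 0.169 and 0.0104), levels far below those of abundant plasma proteins. Lcn2, which binds bacterial siderophores, had 9.18, 17.01 and 23.9 CPM in KO libraries, against 3.11, 5.98 and 5.34 CPM in WT libraries (1.79 ± 0.40, adjusted p = 0.201 and 4.36e-06). The fibrinogen chains Fgb (0.40 ± 0.10) and Fgg (0.44 ± 0.11) were among the 7, while Hp, haptoglobin, had 2539.9, 2941 and 2172 CPM in KO libraries, against 2742, 2691 and 2428 CPM in WT libraries with overlapping groups (-0.04 ± 0.12, adjusted p = 0.919). Saa3 lay the other way (-0.76 ± 0.33, adjusted p = 0.393). The list's median in each library was 0.29, 0.46 and 0.30 in KO libraries 1 to 3, against 0.07, 0.02 and -0.10 in WT libraries 1 to 3.

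Complement genes lay higher too, with 24 of 28 tested above 0 (median 0.19). Only C4a was past the edgeR threshold, against a background of 0.103% on the higher side. C4a is annotated as a processed transcript, not as protein-coding, and its neighbour C4b did not pass. The terminal component gene C9 had 413, 633 and 463 CPM in KO libraries, against 428, 305 and 283 CPM in WT libraries, and the lowest KO library was within the WT range (0.57 ± 0.21, adjusted p = 0.349). Coagulation genes were split 16 to 8 (median 0.07), interferon response genes 18 to 10 (median 0.07) and chemokines and inflammatory mediators 11 to 9 (median 0.06). The interferon median was 6.72e-05 without WT library 3 and 0.15 without WT library 2, and the coagulation median 0.04 without WT library 3. The chemokine median was -0.02 with the composition trend removed and turned negative in 4 of 6 fits that left out a library. Spp1 was the member of these 3 lists that passed.

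**Figure D4:**
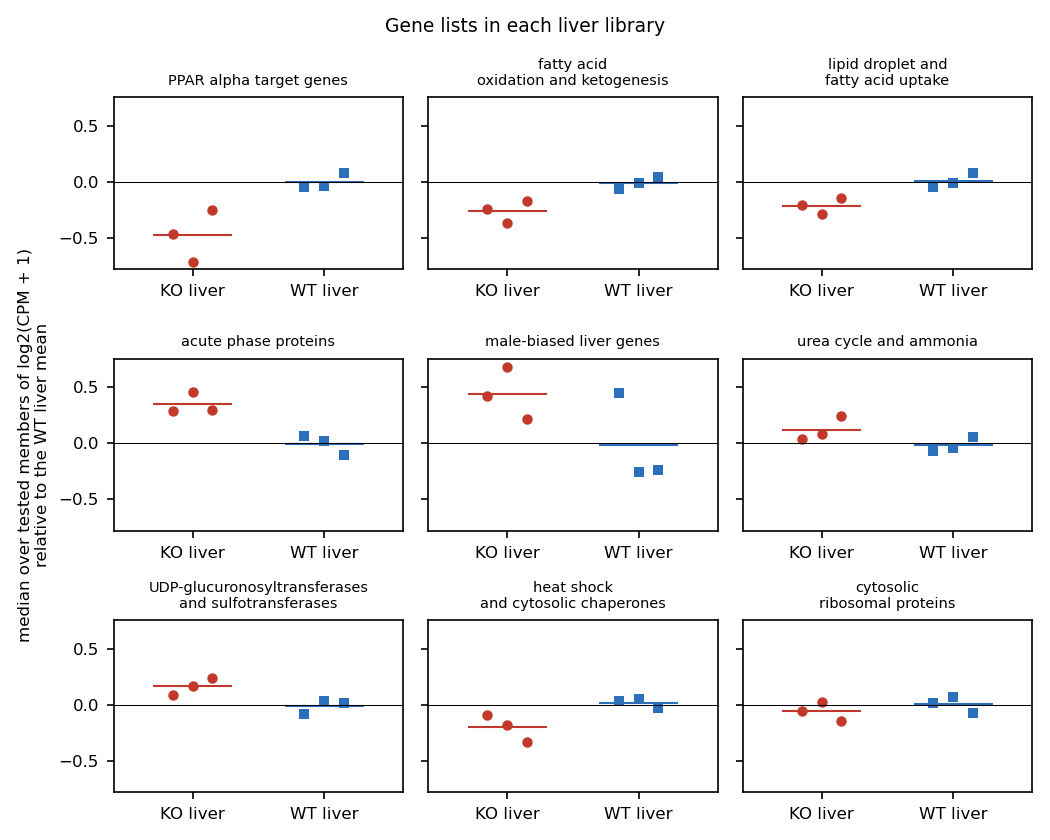
Median over a list's tested members of the level in each library relative to the WT liver mean (log2(CPM + 1), vertical axis), for 9 lists. Red circles are KO liver libraries, blue squares WT liver libraries, and bars the mean of each group; the groups are apart for PPARα targets and acute phase proteins, while for male-biased genes WT library 1, at 0.45, lies among the KO libraries.

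Genes that differ between the sexes lay on opposite sides of 0, and single libraries weighed on this. All animals were labelled male. Of 27 tested male-biased genes, 22 lay above 0 (median 0.50), 3 passed with edgeR (Cyp4a12b, Ugt2b1 and Mup14) and 5 were called higher by DESeq2. The backgrounds of these calls on the higher side were 0.103% and 0.653%. The list's median in each library was 0.42, 0.68 and 0.22 in KO libraries 1 to 3, against 0.45, -0.26 and -0.24 in WT libraries 1 to 3. WT library 1 was within the KO range, and without it the median fold change of the list was 0.79, against 0.31 without KO library 2 and 0.32 without WT library 2. The steroid-converting Hsd3b5 had 165, 236 and 69.5 CPM in KO libraries, against 153, 69.96 and 47.6 CPM in WT libraries (0.80 ± 0.69, adjusted p = 0.693), and the selenium-binding Selenbp2 had 268, 459 and 51.1 CPM in KO libraries, against 334, 31.4 and 20.9 CPM in WT libraries (1.01 ± 1.48, adjusted p = 0.827). For both genes, WT library 1 was within the KO range, and KO library 3 was lowest of the KO libraries.

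Female-biased genes gave the opposite picture. Of 26 listed, 14 were tested, as the others did not pass the filter on low counts, and 4 had no count in any liver library. Of the 14, 2 lay above and 12 below 0, and 0 passed with either tool. Their median was -1.05, and it was -0.56 without WT library 2 and -0.67 without KO library 2. Their levels summed to 335 to 1028 CPM in KO and 802 to 1857 CPM in WT libraries, and these ranges overlap. The steroid hydroxylase Cyp17a1 had 16.2, 11.4 and 26.3 CPM in KO libraries, against 22.96, 47.6 and 51.8 CPM in WT libraries (-1.18 ± 0.47, adjusted p = 0.422). Cyp2b9 had 2.05, 0.344 and 5.74 CPM in KO libraries, against 2.18, 14.02 and 21.6 CPM in WT libraries (-2.21 ± 1.22, adjusted p = 0.545). In both, WT library 1 was below KO library 3. Of the growth hormone and STAT5 axis, which sets these patterns, 9 tested genes lay above and 9 below 0 (median 0.02, negative in 4 of 6 fits that left out a library), with Ghr, the growth hormone receptor, at 0.28 ± 0.10 and Stat5b at -0.08 ± 0.10 (adjusted p = 0.298 and 0.782).

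Genes that process nitrogen had medians slightly above 0, with libraries that overlapped. Of 45 genes of amino acid breakdown, 35 lay above 0 (median 0.09), and Hal rose while Agmat fell. The median was 0.04 without KO library 3, and 0.15 without KO library 2 or WT library 3. In each library the list stood at 0.09, -0.03 and 0.21 in KO libraries 1 to 3, against -0.06, 0.01 and 0.08 in WT libraries 1 to 3, and KO library 2 was below WT libraries 2 and 3. Kmo and Kynu, steps of tryptophan breakdown, had 395, 380.3 and 445 CPM in KO libraries, against 310.3, 327 and 334 CPM in WT libraries for Kmo (0.33 ± 0.10, adjusted p = 0.237) and 188, 189 and 184 CPM in KO libraries, against 145, 142 and 161 CPM in WT libraries for Kynu (0.32 ± 0.09, adjusted p = 0.229). In the urea cycle and ammonia list, 11 of 15 lay above 0 (median 0.13) and the groups were apart on the higher side for 7, against a background of 9.5%. Cps1, the entry enzyme of the urea cycle, had 4986, 4752 and 5185 CPM in KO libraries, against 4535, 3477 and 3516 CPM in WT libraries (0.37 ± 0.11, adjusted p = 0.250). Otc, the next step, had 435, 412 and 463 CPM in KO libraries, against 339, 367 and 367 CPM in WT libraries (0.29 ± 0.09, adjusted p = 0.279). In these lists only Hal and Agmat passed with edgeR, against a background of 0.155% of all tested genes. The list median in each library was 0.04, 0.08 and 0.24 in KO libraries 1 to 3, against -0.07, -0.04 and 0.06 in WT libraries 1 to 3 for the urea cycle, where WT library 3 was within the KO range.

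Position along the liver lobule was read from zone markers. Of 24 periportal genes, which sit where blood enters, 13 lay above and 11 below 0 (median 0.07), but 9 were apart on the higher side and 4 on the lower, against 9.5% and 9.51% of all genes. The periportal median was 0.01 without WT library 2 and 0.02 without KO library 3, and 0.13 without WT library 1 or WT library 3. Those on the higher side included Hal, the phospho-lyase gene Etnppl with 63.99, 100.1 and 123 CPM in KO libraries, against 48.96, 45.5 and 55.5 CPM in WT libraries (0.94 ± 0.23, adjusted p = 0.242 with edgeR and 0.000387 with DESeq2), and the adhesion gene Cdh1 with 17.2, 24.7 and 14.995 CPM in KO libraries, against 12.6, 6.88 and 6.15 CPM in WT libraries (1.15 ± 0.30, adjusted p = 0.242 and 0.00225). On the lower side stood Agt, angiotensinogen, with 571, 601 and 486 CPM in KO libraries, against 734, 731 and 729 CPM in WT libraries (-0.40 ± 0.10, adjusted p = 0.173 and 0.0436), and Alb, albumin, with 78159.9, 77962 and 78051 CPM in KO libraries, against 85157, 92973 and 89126 CPM in WT libraries (-0.19 ± 0.08, adjusted p = 0.387). Of 28 pericentral genes, which sit around the outflow vein, 8 lay above and 20 below 0 (median -0.12), 0 were apart on the higher and 2 on the lower side, Nr1i3 and the Wnt target Axin2 (-0.56 ± 0.20, adjusted p = 0.309). The pericentral median was -0.07 without WT library 2 and -0.06 without WT library 3. In each library it was -0.10, -0.20 and -0.04 in KO libraries 1 to 3, against -0.15, 0.10 and 0.05 in WT libraries 1 to 3, and WT library 1 was within the KO range. The defining pericentral enzymes had overlapping groups, Glul with 806, 819 and 915 CPM in KO libraries, against 805, 963 and 1064 CPM in WT libraries (-0.16 ± 0.11) and Cyp2e1 with 8285, 8338 and 9112 CPM in KO libraries, against 8852, 9885 and 9589 CPM in WT libraries (-0.14 ± 0.09).

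Stress and maintenance lists were mixed. Of 19 heat shock and chaperone genes, 15 lay below 0 (median -0.19), and DESeq2 called Hspb1 lower, with 22.7, 19.5 and 12.4 CPM in KO libraries, against 48.7, 29.2 and 26.2 CPM in WT libraries (-0.93 ± 0.32, adjusted p = 0.360 with edgeR and 0.0143 with DESeq2). It also called Hspa1b lower (-0.95 ± 0.25, adjusted p = 0.0388), whose groups overlapped. The background of DESeq2 calls on the lower side was 0.502%. Of 29 liver transcription factors and nuclear receptors, 21 lay below 0 (median -0.16, and -0.09 with the composition trend removed), with Nr1i3 past the threshold and Hnf4a at -0.27 ± 0.14 (adjusted p = 0.447). The unfolded protein and integrated stress list had 18 of 28 below 0 (median -0.17), a sign that turned without WT library 1. In it Asns, asparagine synthetase, lay the other way, with 1.72, 2.27 and 3.87 CPM in KO libraries, against 1.26, 0.386 and 0.608 CPM in WT libraries (1.79 ± 0.47, adjusted p = 0.189 with edgeR and 0.0450 with DESeq2), low in all libraries. Ribosomal protein genes lay below 0 in 43 of 57 by small amounts (median -0.06).

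Of the respiratory chain, the mitochondrially encoded genes lay higher and the nuclear ones were split. Of 39 nuclear genes of oxidative phosphorylation, 20 lay above and 19 below 0 (median 0.00). Of 13 mitochondrially encoded genes, 11 lay above 0 (median 0.30), and mt-Nd1, a subunit of complex I, had 5796, 6046 and 7092 CPM in KO libraries, against 4643, 4738 and 4531 CPM in WT libraries (0.44 ± 0.10, adjusted p = 0.130 with edgeR and 0.0143 with DESeq2). With the composition trend removed, the median of the mitochondrial genes was 0.09 and mt-Nd1 stood at 0.25 ± 0.08. The 2 lists were not tested against each other.

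The other lists of liver function stayed near the median of all genes. Bile acid synthesis and transport had 17 genes above and 12 below 0 (median 0.04), gluconeogenesis and glycogen 15 and 10 (0.08), the citrate cycle 11 and 10 (0.04), one-carbon and methionine metabolism 12 and 9 (0.03), and glutathione transferases with NRF2 targets 15 and 11 (0.02). Glycolysis and insulin signalling had 9 above and 15 below 0 (-0.04), peroxisome biogenesis 8 and 12 (-0.05), iron and haem 11 and 17 (-0.09), and metallothioneins with zinc transporters 2 and 5 (-0.06). The medians of the citrate cycle, gluconeogenesis, one-carbon, glutathione and glycolysis lists changed sign without 1 or 2 single libraries, and those of glycolysis and iron with the composition trend removed. Of these 9 lists 0 members passed with edgeR.

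Of the lists of cell maintenance and regulation, the proteasome had 20 of 31 genes above 0 (0.06), lysosome and autophagy 13 of 32 (-0.06) with Slc15a4 as the member that fell, and retinoid metabolism 11 of 20 (0.06) with Rarres1 as the member that rose. The cell cycle list had 7 of 22 tested genes above 0 (-0.10), p53 targets 9 of 18 (0.01), immediate early genes 8 of 22 (-0.11), and the circadian clock 5 of 19 (-0.09). The immediate early median was -0.42 without KO library 1 and -0.03 without WT library 2, and the cell cycle median -0.04 without KO library 3 or WT library 1. The retinoid median turned negative without KO library 1, and that of p53 targets in 3 of 6 fits that left out a library. Hepatokines had 7 of 22 above 0 (-0.07). In this list Spp1 was called higher by both tools, and Fgf21 was called lower by DESeq2 only (-1.79 ± 0.40, adjusted p = 0.000647 with DESeq2). The hepatokine median was -0.16 without KO library 1 and -0.22 without KO library 2. Of 6 genes known to differ between inbred strains, 3 were tested, with a median of 0.09 and values from -0.13 to 1.16. This median was -0.16 without KO library 3 and also turned negative with limma voom, so it does not show whether the backgrounds match.

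Among genes called by DESeq2 and not by edgeR were further genes of liver metabolism and growth, of which Igfbp2 and Txnip belong to the glycolysis and insulin list and Cth to the one-carbon list. Igfbp2, a binding protein of insulin-like growth factors, had 302, 323 and 252 CPM in KO libraries, against 659, 482 and 360.0 CPM in WT libraries (-0.78 ± 0.22, adjusted p = 0.278 with edgeR and 0.00323 with DESeq2). Txnip, a glucose-responsive inhibitor of thioredoxin, had 218, 182 and 130.2 CPM in KO libraries, against 219, 310.4 and 327 CPM in WT libraries (-0.69 ± 0.22, adjusted p = 0.309 and 0.0192). KO library 1 and WT library 1 were almost level for Txnip, and the other libraries stood farther apart. Gpd1, which makes glycerol 3-phosphate, had 318, 278 and 268 CPM in KO libraries, against 386, 386 and 424 CPM in WT libraries (-0.47 ± 0.10, adjusted p = 0.113 and 0.00908). Cth, which makes cysteine from cystathionine, had 359.9, 342 and 373 CPM in KO libraries, against 259, 260.4 and 285 CPM in WT libraries (0.42 ± 0.09, adjusted p = 0.130 and 0.0164), and the KO libraries were the higher ones. The thyroid hormone carrier gene Serpina7 had 123, 71.2 and 94.05 CPM in KO libraries, against 35.7, 49.1 and 65.4 CPM in WT libraries (0.94 ± 0.29, adjusted p = 0.328 and 0.00163), again higher in each KO library. Retsat, a retinol saturase, had 322, 307 and 434 CPM in KO libraries, against 516, 454 and 569.6 CPM in WT libraries (-0.53 ± 0.14, adjusted p = 0.189 and 0.0330), and each KO library was lower than each WT library. Of the 138 genes, 134 had groups that did not overlap, which choosing by p in the same libraries favours, and none had opposite signs in the 2 tools.

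Markers of other liver cells were set beside the gene groups above. Kupffer cell markers summed to 115 to 171 CPM in KO and 127 to 130.1 CPM in WT libraries, with 10 of 11 tested above 0 and a median of 0.13 that turned negative without KO library 1. Markers of recruited macrophages and monocytes summed to 45.8 to 52.7 CPM in KO and 36.02 to 49.2 CPM in WT libraries, with S100a4 at 0 in all libraries. Cholangiocyte markers summed to 130.4 to 140.2 CPM in KO and 114 to 142 CPM in WT libraries, with 7 of 12 tested, 3 above and 4 below 0. Spp1, which cholangiocytes and macrophages also make, was the member of the cholangiocyte list that rose, while the duct keratin Krt19 had 0.859, 1.65 and 1.17 CPM in KO libraries, against 0.529, 1.93 and 0.676 CPM in WT libraries (0.22 ± 0.52, adjusted p = 0.893) and Epcam 2.71, 1.79 and 2.28 CPM in KO libraries, against 1.99, 1.67 and 0.946 CPM in WT libraries (0.56 ± 0.36, adjusted p = 0.559). The part of these cells in the Spp1 and acute phase values was not tested.

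Stellate cell and fibroblast markers summed to 353 to 367 CPM in KO and 402 to 432 CPM in WT libraries, ranges that do not overlap. Of 12 tested, 3 lay above and 9 below 0 (median -0.25), 0 passed with edgeR, and DESeq2 called Ecm1 lower, with 102, 104 and 75.9 CPM in KO libraries, against 125, 128 and 159.5 CPM in WT libraries (-0.55 ± 0.14, adjusted p = 0.183 with edgeR and 0.0330 with DESeq2). The collagen gene Col1a2 had 8.45, 8.33 and 9.398 CPM in KO libraries, against 14.9, 10.5 and 11.1 CPM in WT libraries (-0.48 ± 0.18, adjusted p = 0.315). The 3 members above 0 were Dcn, Lrat (0.20 ± 0.21) and Acta2 (0.50 ± 0.46). Dcn had 128, 126 and 140 CPM in KO libraries, against 127, 124 and 115 CPM in WT libraries (0.11 ± 0.09). Most of the gap between the sums came from Ecm1, with a mean of 93.9 CPM in KO and 137.5 CPM in WT libraries. The sums are therefore not a level of these cells. B and plasma cell markers summed to 43.1 to 67.9 CPM in KO and 21.3 to 40.7 CPM in WT libraries, with 5 of 10 tested, all above 0. Igkc, the kappa light chain, had 12.7, 20.5 and 20.5 CPM in KO libraries, against 7.61, 13.4 and 7.84 CPM in WT libraries (0.89 ± 0.26, adjusted p = 0.268 with edgeR and 0.0330 with DESeq2), and its groups overlapped. The T and NK list had 1 of 14 genes tested and the neutrophil list 1 of 10, and their sums stayed under 5 CPM in every library. Endothelial markers summed to 289.5 to 349 CPM in KO and 329 to 356 CPM in WT libraries, red cell markers to 192 to 267 CPM in KO and 179 to 291 CPM in WT libraries and adipocyte markers to 2384 to 3188 CPM in KO and 2116 to 2700.0 CPM in WT libraries. In each of these 3 pairs the ranges overlap. The adipocyte sum was nearly all Car3, with 3128, 2351 and 2640 CPM in KO libraries, against 2079, 2103 and 2641 CPM in WT libraries. Fabp4 of the same list had 4.16, 3.65 and 5.53 CPM in KO libraries, against 3.77, 4.63 and 3.38 CPM in WT libraries. Lep was at 0 in all 6 libraries, so the sum is not a level of adipocyte RNA.

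Fold changes ran with base composition. Across 13521 genes with a known transcript, which are not independent replicates, Spearman's rho of fold change on the GC share of the longest transcript was -0.435. The median fold change was 0.147 in the quintile of genes with the lowest GC share (22.1% to 43.6%), 0.0799 and -0.00309 in the next quintiles, then -0.0736, and -0.184 in the highest (55.2% to 75.5%). Each KO library had the trend, and library 3 the steepest, with a rho of level deviation on GC of -0.0801, -0.116 and -0.436 in KO libraries 1 to 3, against 0.226, 0.213 and 0.294 in WT libraries. These deviations are from the mean of all 6 libraries, so the positive WT values are tied to the negative KO ones. They do not show a trend of the WT libraries' own. The 14 called higher had a median GC share of 44.3% and the 7 called lower 55.2%. With this trend, and that on transcript length, removed from each library, 4 genes were called, C430049B03Rik, Acot1, Cyp4a12b and C4a. All 21 kept their directions, and the median of the glucuronosyltransferase and sulfotransferase list (17 of 23 above 0) was 0.03 in place of 0.20. The part of library preparation in this trend cannot be told apart from genotype.

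**Figure D5:**
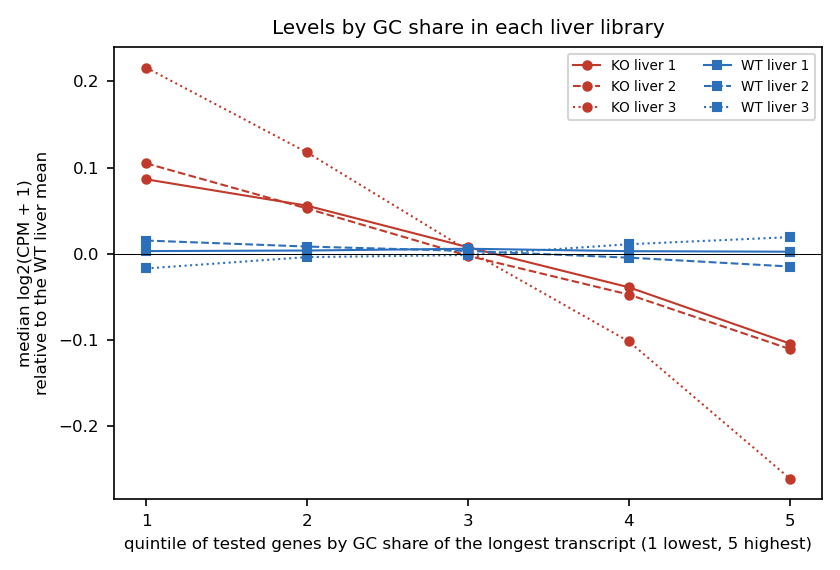
Median level relative to the WT liver mean (log2(CPM + 1), vertical axis) over the tested genes in each quintile by GC share of the longest transcript (horizontal axis, lowest share at 1). Red lines with circles are the KO liver libraries and blue lines with squares the WT liver libraries; KO library 3 falls from 0.22 to -0.26 across the quintiles, and WT libraries stay near 0.

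Messages with and without a match to the seeds of the microRNAs labelled as deleted had medians near each other in liver. In the longest annotated 3′ UTR of 11951 tested protein-coding genes, the match to the miR-322 seed (TGCTGCT, sense strand only) was found in 24.7%, that to miR-503 (CGCTGCT) in 4.89% and that to miR-351 (CTCAGGG) in 15.9%. Genes with a miR-322 match had a median fold change of 0.0168, against -0.00307 for genes without one. For miR-503 the medians were -0.0103 with and 0.00180 without a match, and for miR-351 -0.0245 with and 0.00696 without. With a match, 52.6% (miR-322), 47.9% (miR-503) and 45.4% (miR-351) of genes lay above 0, against 49.4%, 50.3% and 51.1% without. The composition trend, with medians from 0.147 to -0.184 across GC quintiles, was not removed from these values. Of the 18 called genes with a UTR, 2 held a miR-322 match, 0 a miR-503 match and 2 a miR-351 match. A match is a run of letters, not shown to be a working site. These genes are shown with the match in capitals, DNA letters in the sense of the message, since Slc41a2 and Antxr2 rose and Slc15a4 fell.
Slc41a2, miR-322 match from base 191 of the UTR, chromosome 10: gaatggtatttgTGCTGCTttttgt
Slc15a4, miR-322 match from base 298, chromosome 5: cagccaccgttcTGCTGCTgccatc
Slc15a4, miR-351 match from base 47, chromosome 5: agactctaaggcCTCAGGGcttgct
Antxr2, miR-351 match from base 946, chromosome 5: acaaagcttccgCTCAGGGtttttt

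Ccnd1, cyclin D1, a listed target of the miR-15/16 family, holds matches to 2 of the seeds and had 9.18, 7.44 and 9.19 CPM in KO libraries, against 20.6, 25.1 and 12.8 CPM in WT libraries (-1.18 ± 0.23, adjusted p = 0.0897 with edgeR and 0.000231 with DESeq2). Each KO library was below each WT library. Its matches are shown for comparison with the mature sequences above.
Ccnd1, miR-322 match from base 2209 of the UTR, chromosome 7: tgcatgccaccaTGCTGCTggcccg
Ccnd1, miR-503 match from base 1733, chromosome 7: ctcctctcatggCGCTGCTaccgat
Ccnd1, miR-503 match from base 1810, chromosome 7: tcacgttgttttCGCTGCTattgga
Over the listed targets of the family, 29 of 34 were tested, 14 lay above and 15 below 0, and the median of -0.09 changed sign in 4 of 6 fits that left out a library.

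Whether the liver differences were particular to liver was tested against fat of the same genotypes, in a fit of all 12 libraries. Of 16857 genes tested, edgeR called 0 (0%) for a difference between the tissues, 2255 had an unadjusted p under 0.05, and DESeq2 called 210. Of the 21 liver genes, 4 were among the 210, which are Fam131c, Slc41a2, Lgals4 and Antxr2. The 21 were picked by the liver values that this difference uses again. Their number among the 210 therefore does not show that the changes are particular to liver. Antxr2 had 98.1, 102 and 88.9 CPM in KO fat, against 129.7, 95.2 and 107 CPM in WT fat, so its groups overlapped there (liver minus fat 0.89 ± 0.17, adjusted p = 0.159 with edgeR and 0.00598 with DESeq2). Slc41a2 had 19.2, 11.2 and 18.3 CPM in KO fat, against 14.47, 17.1 and 26.1 CPM in WT fat (liver minus fat 1.40 ± 0.36, adjusted p = 0.214 and 0.0292). C430049B03Rik had 31.6, 19.98 and 21.8 CPM in KO fat, against 0.689, 2.08 and 0.816 CPM in WT fat, higher in KO in both tissues. Of the 21 genes, 18 were tested in fat and 12 had the same sign there. The share of all genes with the same sign in both tissues was not computed.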

How the data were processed

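The authors deposited 1 table of read counts per Ensembl gene, whole numbers that were not normalised as far as the values show, for 54532 genes and 12 samples. Libraries were made from 2 µg of TRIZOL-extracted total RNA with a directional NEBNext kit, per the labels' protocols. CASAVA 1.8, HISAT2 and the builds GRCm38 and mm10 are named per the submitters' processing notes. How reads were counted, with which strand setting and annotation, is not given in the sources used here, so reads of near-identical copies and of overlapping genes on opposite strands may be shared.

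The 6 liver columns were matched to samples by name and fitted alone with edgeR 4.0.16 in R 4.3.3, by its robust quasi-likelihood F test on genotype with no covariate, after filterByExpr and TMM scaling, with a Benjamini-Hochberg adjusted p under 0.05 over all tested genes as the threshold. DESeq2 1.42.0 and limma 3.58.1 (voom) were alternatives. The difference from fat was fitted over all 12 libraries. At these depths 3 counts in a library are 0.193 to 0.207 CPM. Each SE is the size of the fold change divided by the square root of the F statistic, so it includes the spread between libraries. GC share, length and 3′ UTRs came from GENCODE M21 transcripts and microRNA sequences from RefSeq. The fit was first tested on simulated data in which 200 genes were changed.

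Named were all called genes, the cluster, up to 4 members of each list with the smallest p, and the next 10 protein-coding genes per direction; a few of these are not reported here. Other genes, among them most DESeq2 calls and markers, were chosen after their values were seen. The 57 lists (12 of them cell markers) were chosen with earlier results of these data known, and describe rather than test. Same-numbered KO and WT libraries did not deviate together (correlations of -0.0619, -0.0666 and 0.0816), so the numbers were not taken as pairs. Alternatives were other scalings, filters and tools, removal of the composition trend (level on GC share and on length, per library, lowess span 0.3), a replicate block, a fit of all 4 groups, an adjusted p under 0.1, and leaving out each library.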

Additional observations from a re-analysis of the deposited data

Results flagged for a closer look

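Fam131c had an effect of genotype in liver opposite to that in fat, with a liver minus fat difference of -5.05 ± 0.97 on the log2 scale (adjusted p = 0.159 with edgeR and 0.00593 with DESeq2). In liver it had 2.71, 1.17 and 3.18 CPM in KO libraries, against 9.13, 8.42 and 12.4 CPM in WT libraries. In fat it had 0.136, 0.728 and 0.377 CPM in KO libraries, against 0.0626, 0 and 0.0680 CPM in WT libraries. The groups did not overlap in either tissue, but the fat levels amount to a few counts per library, too few for the fit of fat alone, and edgeR did not call the difference.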

How the results depend on the processing

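The 21 calls in liver (14 higher and 7 lower in KO) kept their directions in every alternative, and their number did not hold. It was 21 with DESeq2 size factors, 22 with upper quartile factors and 20 with at least 1 CPM in at least 3 libraries. It was 378 without a filter (191 higher and 187 lower), 138 with DESeq2 (78 and 60), 46 at an adjusted p under 0.1 (28 and 18), 4 with the composition trend removed (3 and 1), 3 with limma voom (2 and 1), 3 without the robust step (2 and 1) and 1 in the fit of all 4 groups (1 and 0). Leaving out each library gave 5 to 34 calls, 2 to 17 of them higher and 1 to 17 lower. The cause of these shifts was not tested. With the replicate number as a block, edgeR called 28 genes, 15 higher and 13 lower, and 17 of the 21 were among them. The difference between liver and fat had 0 calls, 21 without a filter, 210 with DESeq2, and 0 to 1 when a liver library was left out. Among named genes, Alad stood at 0.00403 with the trend removed, Entpd4b at -0.346 with voom and -2.52 without KO library 3 (range without single libraries -2.52 to 1.81), and Slc30a10 at 0.0610 without WT library 1 (range -0.201 to 0.0610), each opposite in sign to its value in the fit used here and none called. Of the 57 list medians, 31 kept their sign in every alternative that gave a value. With 3 libraries a group at these depths, small changes of low genes were not detectable.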
